A study of Mus musculus with 12 samples.

Results

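Integrins are the receptors through which a cell holds on to extracellular matrix. The 10 subunits described here, a chosen list, can combine into receptors for collagen, laminin and fibronectin. They were measured in 4T1 cells, a mouse mammary carcinoma line, which also held transcripts of other integrin subunits, described further below. The members were Itga2, Itga3, Itga5, Itga6, Itgav, Itgb1, Itgb3, Itgb4, Itgb5 and Itgb6, taken by gene symbol. They are 10 of the 31017 symbols in the count table and 10 of its 27 integrin subunit symbols, and all 10 passed the filter on low counts. RNA had been sequenced from 12 libraries of 4T1 cells grown inside collagen I gels in 2% serum. The 4 groups, of 3 libraries each, were cells nucleofected with Cas9 and an ETV4 guide RNA and given FGF (ETV4 KO with FGF), cells given Cas9 with a control guide RNA and FGF (control with FGF), and the same pair of cells without added ligand (ETV4 KO and control). FGF stands for FGF10 at 25 ng/ml together with FGF2 at 40 ng/ml. Per the labels, the FGF arms spent their first day in 10% serum with the ligands and then 4 days in 2% serum with the ligands. The labels do not say whether the arms without FGF had the same first day, so that the ligands and that day cannot be told apart. Below, a rise, fall or response with FGF names the difference between these arms.

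All groups carried Cas9. The collagen concentration was 1.2 mg/ml for some gels and 2.4 mg/ml for others, with no label that ties a library to either. The 6 ETV4 KO libraries share a further tag in their library names, and the labels do not say whether the cells were a pool or a clone, so that genotype and clone cannot be told apart. Separate cultures are not stated either, and the spread behind each p-value may therefore be technical. Cells were freed from the gels with collagenase before their RNA was extracted.

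An integrin is a dimer of an alpha and a beta subunit, and the pairing sets the ligand. Itga2 pairs with Itgb1 to bind collagen. Itga3 pairs with Itgb1, and Itga6 with Itgb1 or Itgb4, to bind laminins of the basement membrane; the dimer of Itga6 and Itgb4 anchors hemidesmosomes, the junctions that tie epithelial keratins to that membrane. Itga5 with Itgb1 is the main fibronectin receptor, and Itgav pairs with Itgb3, Itgb5, Itgb6 or Itgb1 to bind vitronectin, osteopontin, fibronectin and other proteins with an RGD motif. Itgb6 with Itgav also releases TGF-beta from its latent complex in epithelia. The transcription factor ETV4 belongs to the PEA3 group of the ETS family, acts downstream of FGF receptors, and, like other ETS factors, binds DNA around a GGAA core.

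The members are spread over 6 chromosomes of the mm10 build, with gene models from GENCODE vM21. Itga6 (chr2:71745616-71858416), Itgav (chr2:83724397-83806916) and Itgb6 (chr2:60598292-60722643) lie on chromosome 2. Itga3 (chr11:95044474-95076801), Itgb3 (chr11:104608000-104670476) and Itgb4 (chr11:115974709-116008412) lie on chromosome 11, as does Etv4. Itgb1 is at chr8:128685654-128733200, Itga2 at chr13:114833081-114932100, Itga5 at chr15:103344286-103366763 and Itgb5 at chr16:33829665-33949338. Exons of Itgb4 overlap those of B230344G16Rik on the other strand, which held 47 counts against 83694 for Itgb4. Exons of Itgav overlap the gene model Gm13684 on the other strand. The strand setting of the counting is not given in the sources used here. Without strand, reads of such pairs cannot be told apart.

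RefSeq promoter windows of build GRCm38.p6, from 250 bases before to 50 after a start site, were matched by symbol for 7 of the 10 members (9 windows); Itga6, Itgb3 and Itgb4 had no entry. The windows were searched on both strands for the 6-letter sequences AGGAAG and CGGAAG, forms of the ETS core, so that a match on the other strand reads CTTCCT or CTTCCG; no matches overlapped in the members' windows. A match was found in 5 of the 9 windows, while 46.5% of all 32851 windows of 300 bases held at least 1. The windows of Itga2 (chr13:114932051-114932350, minus strand), Itga5 (chr15:103366742-103367041, minus strand) and Itgb6 at its outer start (chr2:60722554-60722853, minus strand), subunits whose transcripts differed most with genotype or FGF among those with a window, are shown here with that of Itga3 (chr11:95076665-95076964, minus strand), the most abundant alpha subunit. Capitals mark the matches. The Itga2, Itga5 and outer Itgb6 windows held neither 6-letter sequence. The Itga3 window held AGGAAG from base -246 and CGGAAG from base -88 relative to the start site. The shorter core GGAA was not searched for, and it occurs in each window shown. Of the windows not shown, the inner Itgb6 start held CTTCCT from base -53 and AGGAAG from base -34, Itgav and Itgb1 held 2 matches each, the other Itga3 window held 1 and Itgb5 held none. These are letters in a window and not evidence of binding.
Itga2: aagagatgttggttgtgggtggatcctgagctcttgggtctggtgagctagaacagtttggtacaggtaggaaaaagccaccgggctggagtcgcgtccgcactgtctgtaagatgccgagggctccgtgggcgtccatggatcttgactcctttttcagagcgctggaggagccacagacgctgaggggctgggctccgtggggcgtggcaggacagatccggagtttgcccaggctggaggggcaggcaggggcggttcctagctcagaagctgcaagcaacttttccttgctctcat
Itga5: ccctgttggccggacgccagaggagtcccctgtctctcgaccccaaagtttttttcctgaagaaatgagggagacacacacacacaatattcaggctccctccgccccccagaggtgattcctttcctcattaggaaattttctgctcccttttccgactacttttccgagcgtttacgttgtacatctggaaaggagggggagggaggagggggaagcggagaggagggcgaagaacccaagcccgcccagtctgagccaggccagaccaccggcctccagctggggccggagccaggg
Itgb6: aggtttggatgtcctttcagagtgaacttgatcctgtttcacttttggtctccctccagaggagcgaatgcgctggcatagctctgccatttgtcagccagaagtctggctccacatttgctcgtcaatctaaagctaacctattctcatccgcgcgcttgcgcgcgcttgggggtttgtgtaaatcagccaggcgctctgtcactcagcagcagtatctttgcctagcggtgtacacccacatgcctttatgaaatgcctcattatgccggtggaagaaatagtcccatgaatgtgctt
Itga3: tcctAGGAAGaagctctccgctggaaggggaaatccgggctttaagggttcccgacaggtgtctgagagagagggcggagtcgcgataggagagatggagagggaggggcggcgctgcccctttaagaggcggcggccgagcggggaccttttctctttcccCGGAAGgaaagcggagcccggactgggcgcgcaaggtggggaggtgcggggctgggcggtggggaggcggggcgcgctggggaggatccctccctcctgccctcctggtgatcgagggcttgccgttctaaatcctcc

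Library totals ran from 18229429 to 23193244 counts. The library of ETV4 KO replicate 2 stood apart from all others. Its counts differed from those of its own replicates by a chi-square per degree of freedom of 74.3 and 73.08, where all other pairs of replicates gave 3.34 to 11.64. Across genes its deviation from its group followed GC content (Spearman's rho 0.50 over 11977 genes) and exon length (rho -0.47 over 11955 genes), a description with no test. Several members stood apart in that library too. Itgav, Itgb6, Itga6 and Itga2 in that library were at 0.383, 0.385, 0.574 and 0.6 of the mean of replicates 1 and 3, and Itgb5 was at 1.37 of it. Results that use the ETV4 KO group without FGF are therefore given with and without this library. Leaving it out also moved calls in comparisons that do not use it, with 12235 genes tested in place of 12079. The main fit takes each gene's spread from all 12 libraries, so the deviation of ETV4 KO replicate 2 enters every SE and p-value of that fit. Its part in the moved calls was not tested. Control with FGF replicate 2 was next by chi-square per degree of freedom, with 11.64 and 9.37 against its replicates. Its rho was 0.22 with GC content and -0.38 with exon length. Control with FGF replicate 1 went the other way, with a rho of -0.29 with GC content and 0.31 with exon length.

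**Figure D1:**
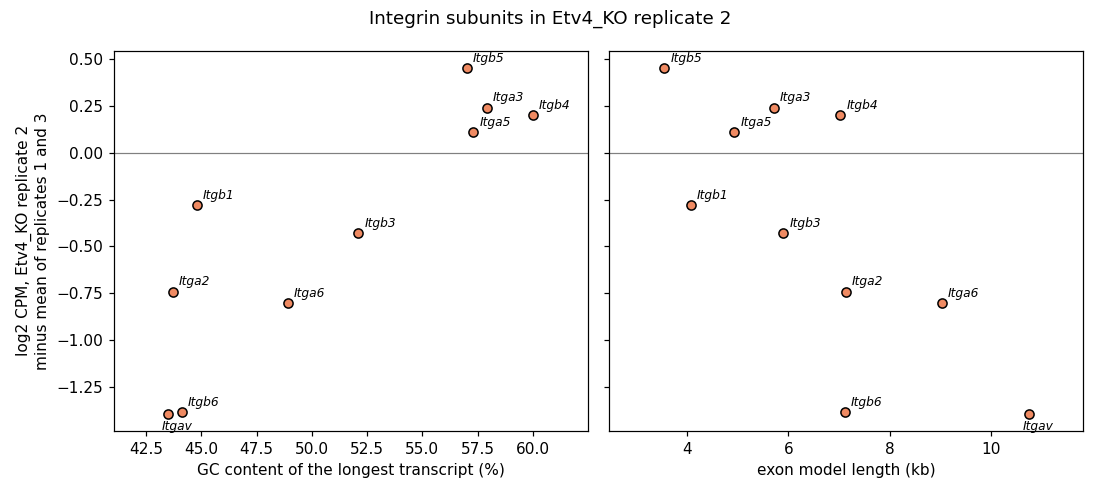
Each point is an integrin subunit. The vertical axis gives the log2 CPM of ETV4 KO replicate 2 minus the mean of ETV4 KO replicates 1 and 3, against GC content of the longest transcript in percent (left) and exon model length in kilobases (right). The 4 subunits with a GC content of 57% or more lie above 0, and the other 6 lie below it, down to -1.39 for Itgav.

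The targeted gene was still transcribed. Etv4 had 115.2, 119.5 and 113.1 CPM (library-scaled counts, with TMM factors) in ETV4 KO with FGF, against 154.5, 173 and 166.9 CPM in control with FGF. Without FGF it had 116.3, 159 and 116 CPM in ETV4 KO, against 167.9, 162.2 and 167.5 CPM in control. The libraries of both pairs of groups did not overlap, and the log2 fold changes were -0.51 with FGF (adjusted p = 0.00204) and -0.35 without FGF (adjusted p = 0.0173), or -0.51 without ETV4 KO replicate 2. The second call is lost when single other libraries are left out (adjusted p up to 0.0667). The 50 tested genes nearest to Etv4, on chromosome 11, had median log2 fold changes of -0.47 with FGF and -0.42 without. The median without FGF was -0.5 when ETV4 KO replicate 2 was left out. The part of this regional shift in the Etv4 values was not tested. A small insertion or deletion at a guide's cut need not change the transcript level, and the counts do not show the cut itself.

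Epithelial markers were abundant in all libraries, and most of those of other cell types were at or near 0. Summed over Epcam, Cdh1, Krt8, Krt18, Krt7 and Krt19, all 6 of them tested, they made up 3983 to 4107 CPM in ETV4 KO with FGF, 4751 to 5329 CPM in control with FGF, 4384 to 6288 CPM in ETV4 KO and 4656 to 4819 CPM in control. The fibroblast genes Dcn, Lum and Pdgfrb, the endothelial gene Kdr, the macrophage gene Adgre1 and the platelet gene Pf4 had 0 counts in all 12 libraries. The fibroblast gene Pdgfra was detected, with group means of 14.1 CPM in ETV4 KO with FGF, 9.89 CPM in control with FGF, 11 CPM in ETV4 KO and 10.4 CPM in control. So was the macrophage gene Cd68, with 8.88, 6.64, 9.8 and 7.04 CPM in the same groups, and Itgb2, described with the other integrin subunits. The epithelial sum was lower in ETV4 KO with FGF than in control with FGF, and its part in the results was not tested. Of its genes, Krt19 went the other way, with means of 91.8 CPM in ETV4 KO with FGF and 48.8 CPM in control with FGF. In bulk RNA, a change in the cells present and a change in RNA per cell cannot be told apart.

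Per kilobase of exon, the scale on which genes can be compared with each other, Itgb1 and then Itga3 were the highest subunits in all 4 groups. Itgb1, the beta subunit shared by the collagen, laminin and fibronectin receptors, reached 399 ± 6.29 RPKM in ETV4 KO with FGF, 321 ± 4.01 RPKM in control with FGF, 295 ± 32.2 RPKM in ETV4 KO and 305 ± 2.39 RPKM in control (SD, n = 3 each). Below Itga3 the order differed. In ETV4 KO with FGF it ran Itga6 (109 RPKM), Itga2 (65.2), Itgb4 (43.6), Itgav (25.4), Itga5 (19.4) and Itgb5 (11), with no overlap between the libraries of neighbouring subunits. In control with FGF it ran Itgb4 (50.7 RPKM), Itga6 (38), Itga2 (36.8), Itgav (18.6), Itgb5 (16.7) and Itga5 (9.80), and the libraries of Itga6 and Itga2, and of Itgav and Itgb5, overlapped. ETV4 KO without FGF ran Itga6 (75.7 RPKM), Itgb4 (47.7), Itga2 (35), Itgav (19.4), Itgb5 (13.3) and Itga5 (13), with overlaps between Itga6 and Itgb4 and from Itga2 down to Itga5. Control without FGF ran Itgb4 (52.1 RPKM), Itga6 (34.1), Itga2 (30.5), Itgav (20), Itgb5 (19) and Itga5 (9.32), with no overlap. The group means of Itgb3 and Itgb6 were all under 1 RPKM, and their libraries overlapped in each group except control with FGF.

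**Figure D2:**
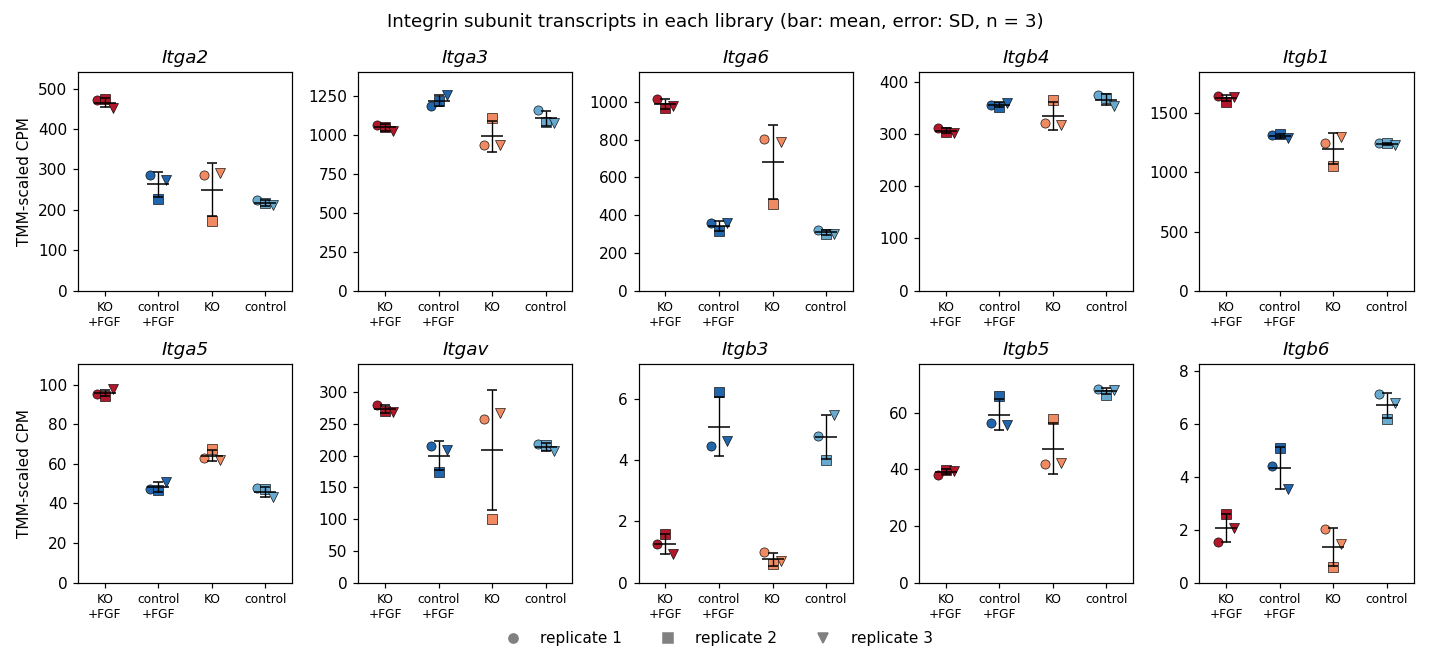
Each panel is a subunit, with TMM-scaled CPM on a vertical axis from 0 and the 4 groups along the horizontal axis. Symbols are the 3 libraries by replicate number, the horizontal bar is the mean and the error bar the SD (n = 3). Itga6 lies between 968 and 1017 CPM in ETV4 KO with FGF, above all other groups, and Itgb3 and Itgb6 are higher in both control groups; the square of ETV4 KO without FGF is replicate 2.

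The collagen receptor subunit Itga2 was highest in ETV4 KO cells given FGF. It had 470.4, 473.6 and 451.7 CPM in ETV4 KO with FGF, against 286.6, 227.5 and 274.4 CPM in control with FGF. Without FGF it had 285.9, 172.8 and 290.4 CPM in ETV4 KO, against 224.1, 216.6 and 211 CPM in control. The groups with FGF were fully separated, while those without FGF overlapped through ETV4 KO replicate 2. With FGF, Itga2 was 1.77-fold higher in ETV4 KO than in control (log2 fold change 0.82 ± 0.15 SE, adjusted p = 0.000899). Without FGF the log2 fold change was 0.20 (SE 0.15, adjusted p = 0.303), and 0.41 without ETV4 KO replicate 2 (adjusted p = 1.97e-05). FGF raised Itga2 1.86-fold in ETV4 KO cells (log2 0.90, SE 0.15, adjusted p = 0.00721), or by 0.69 on the log2 scale without replicate 2 (adjusted p = 2.81e-07). When only the 6 ETV4 KO libraries were fitted, the adjusted p was 0.167. In control cells the FGF response was 0.27 (SE 0.15, adjusted p = 0.968); it passed the threshold without ETV4 KO replicate 2 (0.28, adjusted p = 0.00932), a fit that left its own libraries as they were.

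Among laminin receptor subunits, Itga6 carried the largest rise of all members with genotype. It had 1017, 968 and 976.2 CPM in ETV4 KO with FGF, against 358.2, 313.8 and 356.8 CPM in control with FGF. In ETV4 KO without FGF it had 803.5, 456.9 and 788.5 CPM, against 320.8, 302.1 and 301 CPM in control. Every ETV4 KO library, replicate 2 included, lay above every control library. The rise was 2.88-fold with FGF (log2 1.53 ± 0.16 SE, adjusted p = 8.29e-06) and 2.22-fold without FGF (log2 1.15 ± 0.16 SE, adjusted p = 8.24e-05), or 2.59-fold without replicate 2 (adjusted p = 1.27e-15). Both calls held whichever single library was left out (adjusted p at most 0.000802). The 50 tested genes nearest to Itga6 had a median log2 fold change of 0.15 with FGF and 0.17 without. FGF gave Itga6 a log2 fold change of 0.53 in ETV4 KO cells (SE 0.16, adjusted p = 0.102) and 0.31 without replicate 2 (adjusted p = 0.000576). DESeq2 called it with all libraries (adjusted p = 0.0366). In control cells the value was 0.16 (SE 0.16), not called.

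The other laminin receptor subunits, Itga3 and Itgb4, differed little between groups. Itga3 had 1064, 1053 and 1025 CPM in ETV4 KO with FGF, against 1185, 1215 and 1258 CPM in control with FGF. Itgb4 had 311.4, 303.4 and 302.8 CPM in ETV4 KO with FGF, against 356.2, 351.2 and 359.8 CPM in control with FGF. Both pairs of groups were separated, by a small margin. With FGF, both fell by 0.22 on the log2 scale (SE 0.07 each, adjusted p = 0.0274 for Itga3 and 0.0184 for Itgb4). Either call is lost when any of several single libraries is left out: for Itga3 any of the 3 ETV4 KO libraries with FGF or control with FGF replicate 3 (adjusted p 0.059 to 0.094), and for Itgb4 ETV4 KO with FGF replicate 2 or 3, or control with FGF replicate 1 or 3 (adjusted p 0.0529 to 0.0617). Without FGF, Itga3 had 934.3, 1107 and 934.2 CPM in ETV4 KO and 1160, 1083 and 1073 CPM in control, and Itgb4 had 321.3, 365.4 and 316.9 CPM in ETV4 KO and 375.1, 368.8 and 353.6 CPM in control. These groups overlapped through replicate 2. The log2 fold changes were -0.16 (SE 0.07, adjusted p = 0.0935) and -0.13 (SE 0.07, adjusted p = 0.127), and -0.24 (adjusted p = 0.000126) and -0.20 (adjusted p = 0.00119) without replicate 2.

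The genes around some members shifted with genotype too. On chromosome 11 the median log2 fold change over its 989 tested genes was -0.41 with FGF and -0.37 without, against -0.012 and -0.009 over all genes tested. Among the 50 tested genes nearest to Itga3 the medians were -0.39 and -0.33, and for Itgb4 they were -0.50 and -0.35, so that with FGF both subunits fell by less than the median of their neighbours. Chromosome 16, which carries Itgb5, had medians of -0.37 and -0.40 over 364 genes, while chromosome 2 had 0.12 and 0.13 over 946. The part of these regional shifts in the results was not tested.

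Itgb1 was higher in ETV4 KO than in control with FGF and close to it without. It had 1647, 1599 and 1639 CPM in ETV4 KO with FGF, against 1316, 1322 and 1291 CPM in control with FGF. Without FGF the values were 1254, 1053 and 1300 CPM in ETV4 KO and 1253, 1246 and 1234 CPM in control. The 3 ETV4 KO libraries with FGF stood above all other libraries. The log2 fold change with FGF was 0.31 (SE 0.07, adjusted p = 0.00371). Without FGF it was -0.05 (SE 0.07, adjusted p = 0.605), and 0.04 without replicate 2 (adjusted p = 0.457). FGF raised Itgb1 in ETV4 KO cells by 0.44 on the log2 scale (SE 0.07, adjusted p = 0.00556), or by 0.35 without replicate 2 (adjusted p = 4.83e-06), though not in a fit of the 6 ETV4 KO libraries alone (adjusted p = 0.188). In control cells the response was 0.07 (SE 0.07), not called.

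The fibronectin receptor subunit Itga5 rose with genotype in both conditions and with FGF in ETV4 KO cells. It had 95.48, 94.54 and 97.74 CPM in ETV4 KO with FGF, against 47.26, 46.67 and 51.06 CPM in control with FGF. Without FGF it had 63, 67.38 and 62.18 CPM in ETV4 KO, against 47.62, 47.22 and 43.13 CPM in control. No ETV4 KO library overlapped a control library, and the libraries with FGF lay above those without FGF in ETV4 KO cells, whereas they overlapped in control cells. The genotype difference was 1.98-fold with FGF (log2 0.99 ± 0.07 SE, adjusted p = 2.46e-07) and 1.40-fold without (log2 0.48 ± 0.07 SE, adjusted p = 0.00014). FGF raised Itga5 1.49-fold in ETV4 KO cells (log2 0.58 ± 0.07 SE, adjusted p = 0.000843), and the value was 0.62 without replicate 2 (adjusted p = 3.38e-07). That call held in all fits run, including the 6 ETV4 KO libraries alone, with adjusted p at most 0.0424. In control cells the response was 0.07 (SE 0.07), not called.

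Itgav, the alpha partner of Itgb3, Itgb5 and Itgb6, depended on ETV4 KO replicate 2 more than any other member. It had 279.7, 269.9 and 268.7 CPM in ETV4 KO with FGF, against 215.7, 174 and 209.3 CPM in control with FGF. In ETV4 KO without FGF it had 258.3, 100.5 and 267.4 CPM, against 219, 216.5 and 207.6 CPM in control. The groups with FGF were separated, and without FGF replicates 1 and 3 of ETV4 KO lay above control while replicate 2 lay far below it. The log2 fold change with FGF was 0.45 (SE 0.25, adjusted p = 0.174); the same difference had an adjusted p of 2.89e-05 when fitted on the libraries with FGF alone, and of 8.51e-07 without ETV4 KO replicate 2. Without FGF it was -0.04 (SE 0.25, adjusted p = 0.917) with all libraries and 0.29 (adjusted p = 0.000636) without replicate 2. FGF responses were 0.38 in ETV4 KO cells, or 0.05 without replicate 2, and -0.10 in control cells, none called.

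Itgb5, Itgb3 and Itgb6, which pair with Itgav but not with the other alpha members, were lower in ETV4 KO than in control. Itgb5, a vitronectin receptor subunit, had 38.2, 39.76 and 39.5 CPM in ETV4 KO with FGF, against 56.54, 65.86 and 55.77 CPM in control with FGF. Without FGF it had 41.95, 57.67 and 42.18 CPM in ETV4 KO, against 68.35, 66.3 and 68.12 CPM in control. All ETV4 KO libraries were below their controls. The log2 fold change was -0.60 with FGF (SE 0.11, adjusted p = 0.000957) and -0.52 without (SE 0.11, adjusted p = 0.00231), or -0.68 without replicate 2. The 50 tested genes nearest to Itgb5 had medians of -0.35 and -0.46.

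Itgb3, found with Itgav on invasive and angiogenic cells, was a rare transcript with the largest fall among the members. It had 1.263, 1.586 and 0.937 CPM in ETV4 KO with FGF (19 to 30 counts per library), against 4.475, 6.212 and 4.62 CPM in control with FGF (97 to 123 counts). Without FGF it had 1.01, 0.5995 and 0.7007 CPM in ETV4 KO (10 to 20 counts), against 4.795, 4.014 and 5.478 CPM in control (85 to 110 counts). The groups did not overlap. Itgb3 was 4.03-fold lower in ETV4 KO with FGF (log2 -2.01 ± 0.24 SE, adjusted p = 2.22e-05) and 6.09-fold lower without (log2 -2.61 ± 0.26 SE, adjusted p = 5.51e-06), or -2.48 without replicate 2. The medians of its 50 nearest tested genes were -0.56 and -0.51.

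Itgb6, the epithelial partner of Itgav, was rare too. It had 1.543, 2.591 and 2.071 CPM in ETV4 KO with FGF (33 to 49 counts), against 4.391, 5.101 and 3.525 CPM in control with FGF (74 to 105 counts). Without FGF it had 2.019, 0.5995 and 1.448 CPM in ETV4 KO (10 to 40 counts), against 7.145, 6.186 and 6.773 CPM in control (131 to 152 counts). The ETV4 KO libraries were below their controls in both conditions. The difference was 2.10-fold with FGF (log2 -1.07 ± 0.28 SE, adjusted p = 0.00772) and 4.82-fold without (log2 -2.27 ± 0.29 SE, adjusted p = 4.12e-05), or -1.95 without replicate 2. FGF gave -0.63 in control cells (SE 0.25, adjusted p = 0.687), where the groups did not overlap, and 0.57 in ETV4 KO cells (SE 0.33, adjusted p = 0.343), where they did.

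With FGF, 4 of the 10 members were called higher in ETV4 KO (Itga2, Itga5, Itga6 and Itgb1) and 5 lower (Itga3, Itgb3, Itgb4, Itgb5 and Itgb6), where 40.3% of all 12079 genes tested were called (18% higher and 22.2% lower). Without ETV4 KO replicate 2, Itgav joined the higher ones, making 5 and 5, and 58.6% of genes were called. The lower count was 3 when ETV4 KO with FGF replicate 2 or 3, or control with FGF replicate 3, was left out. All 10 members had groups that did not overlap, as did 61.4% of genes tested. Without FGF, 2 were called higher (Itga5 and Itga6) and 3 lower (Itgb3, Itgb5 and Itgb6), where 45.8% of genes were called (22.5% higher and 23.3% lower). Leaving out replicate 2 gave 4 higher and 5 lower, with 54.5% of genes called. Groups did not overlap for 5 members without FGF and for 53.6% of genes. The median over the members was 0.05 with FGF and -0.09 without, near the medians of all genes.

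**Figure D3:**
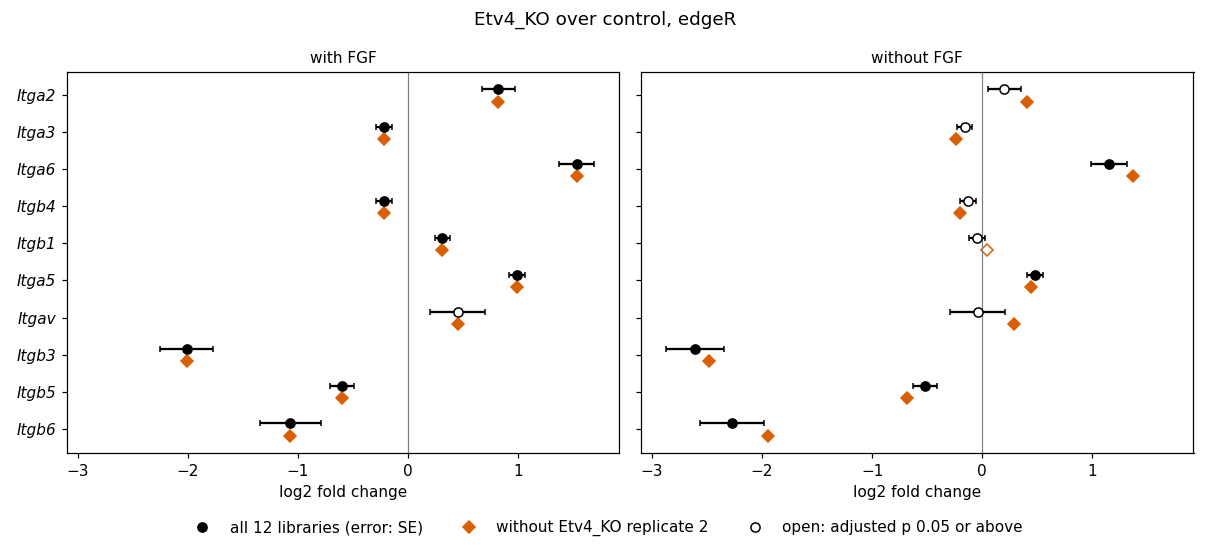
Log2 fold change of ETV4 KO over control for each subunit, with FGF (left) and without (right). Black circles are the fit of all 12 libraries with the SE, orange diamonds the fit without ETV4 KO replicate 2, and open symbols have an adjusted p of 0.05 or above. Itga6 is the farthest to the right in both panels (1.53 and 1.15), Itgb3 the farthest to the left (-2.01 and -2.61), and Itgav and Itgb1 lie on opposite sides of 0 in the 2 fits without FGF.

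The response to FGF was read in each genotype. In ETV4 KO cells, 3 of 10 members were called higher (Itga2, Itga5 and Itgb1) and none lower, where 2.42% of genes tested were called (1.47% higher and 0.944% lower). Without replicate 2 the count was 5 higher, with Itga3 and Itga6 added, and none lower, and 7.76% of genes were called. For Itga3 that value was 0.16 (adjusted p = 0.0302). In a fit of the 6 ETV4 KO libraries alone only Itga5 was called. Groups did not overlap for 7 members and for 23.9% of genes. Of these members, Itgb4 (-0.13, SE 0.07) and Itgb5 (-0.27, SE 0.11) were lower with FGF, neither called, and the others were higher. Without replicate 2 their values were -0.06 for Itgb4 and -0.10 for Itgb5. Itgb3 had 0.69 (SE 0.31, adjusted p = 0.239), with groups that overlapped, and 0.56 without replicate 2. The median over the members was 0.48, against -0.02 over all genes tested.

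In control cells, edgeR called 0 of 10 members, where 0.488% of genes were called. An unadjusted p under 0.05 was found for 1 of them with edgeR, and DESeq2 and limma-voom also called 0. Groups did not overlap for 5 members and for 18.3% of genes. Of these members, Itgb5 (-0.19, SE 0.11) and Itgb6 (-0.63, SE 0.25) were lower with FGF, and Itga2, Itga3 and Itgb1 were higher. Itgb3 had 0.10 (SE 0.20) and Itgb4 -0.04 (SE 0.07), with groups that overlapped. Without ETV4 KO replicate 2, a library that this comparison does not use, 1 member (Itga2) was called and 2.8% of genes were. Without control with FGF replicate 2 as well, 3 were called higher (Itga2 0.37, Itga3 0.14 and Itga6 0.21) and 2 lower (Itgb5 -0.27 and Itgb6 -0.76), with 2.92% of genes called. The median over the members was 0.07.

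**Figure D4:**
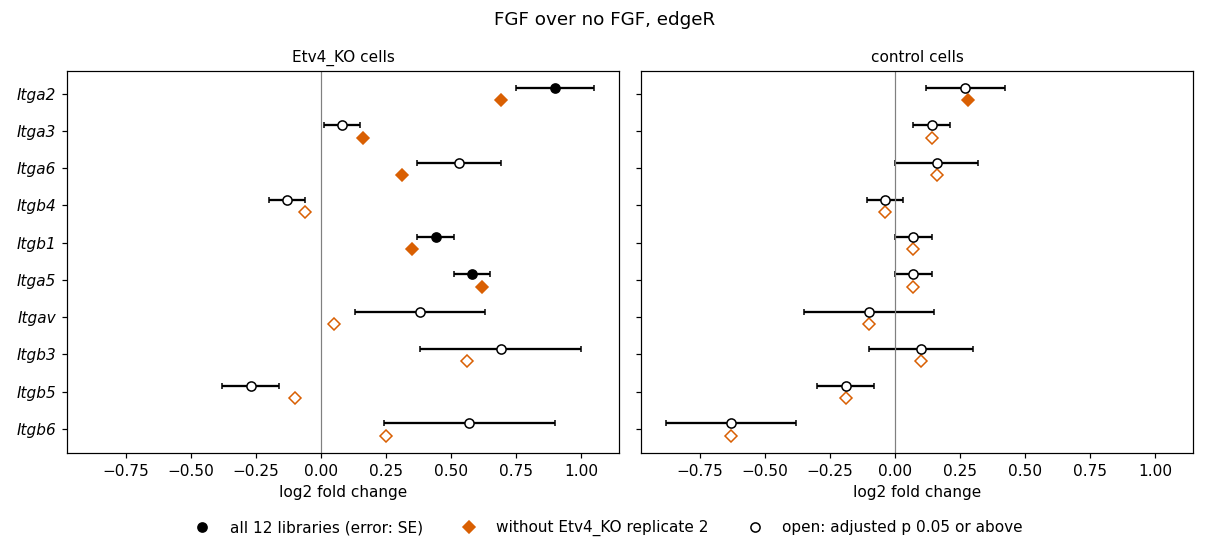
Log2 fold change of FGF over no FGF for each subunit in ETV4 KO cells (left) and control cells (right). Black circles are the fit of all 12 libraries with the SE, orange diamonds the fit without ETV4 KO replicate 2, and open symbols have an adjusted p of 0.05 or above. Itga2, Itga5 and Itgb1 are filled in ETV4 KO cells (0.90, 0.58 and 0.44), and no circle is filled in control cells.

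Whether the FGF response differed between genotypes was tested as the interaction, the response in ETV4 KO cells minus that in control cells. With all libraries, edgeR called 0 of 10 members and 2 genes in all, Mmp9 and Mmp13 (0.0166% of genes tested), and 4 members had an unadjusted p under 0.05. Itga5 had an interaction of 0.51 (SE 0.10, adjusted p = 0.145). DESeq2 called Itga5 alone among the members (0.52, adjusted p = 0.00022), and limma-voom called 0. Without ETV4 KO replicate 2, 3 members were called, Itga5 (0.55, adjusted p = 0.0011), Itgb1 (0.28, adjusted p = 0.0126) and Itga2 (0.42, adjusted p = 0.0212), together with 0.981% of genes. Among the edgeR fits that left out 1 library, members were called in that fit alone. For Itgb6 the interaction was 1.20 (SE 0.41, adjusted p = 0.455), and 0.88 without replicate 2 (adjusted p = 0.226).

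With FGF, Itga3 took a smaller and Itga6 a larger share of the alpha transcripts in ETV4 KO than in control. As a share of the 5 alpha transcripts per kilobase, Itga3 was 45.5 ± 0.265% in ETV4 KO with FGF and 67.4 ± 2.17% in control with FGF (SD, n = 3 each). Without FGF it was 49.7%, 66.5% and 49.7% in ETV4 KO and 67.7%, 67% and 67.4% in control, so that the Itga3 share of replicate 2 lay near those of control. Itga6 made up 27.2 ± 0.416% in ETV4 KO with FGF against 12 ± 0.551% in control with FGF, and 27%, 17.4% and 26.5% in ETV4 KO against 11.9 ± 0.115% in control without FGF. Itga2 was 16.2 ± 0.265% in ETV4 KO with FGF, against 11.6 ± 1.10% in control with FGF; without FGF it was 12.2%, 8.31% and 12.4% in ETV4 KO and 10.5%, 10.7% and 10.6% in control. Both laminin-binding alphas together took 72.7 ± 0.200% in ETV4 KO with FGF and 79.4 ± 1.56% in control with FGF. Without FGF the genotypes overlapped, with 76.7%, 83.8% and 76.2% in ETV4 KO and 79.5%, 78.8% and 79.3% in control. These shares are descriptions, with no test, and rest on exon model lengths.

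The ratio of the subunits of the hemidesmosome receptor differed between genotypes, again as a description. Itga6 per kilobase was 2.51 ± 0.0300 times Itgb4 in ETV4 KO with FGF and 0.749 ± 0.0470 times in control with FGF. Without FGF the ratio was 1.94, 0.972 and 1.93 in ETV4 KO and 0.655 ± 0.0154 in control. The sum of the 5 alphas relative to Itgb1 stayed between 0.943 and 1.08 in the group means, 1.01 ± 0.0236 in ETV4 KO with FGF, 0.988 ± 0.0492 in control with FGF, 1.08 ± 0.0503 in ETV4 KO and 0.943 ± 0.0304 in control.

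**Figure D5:**
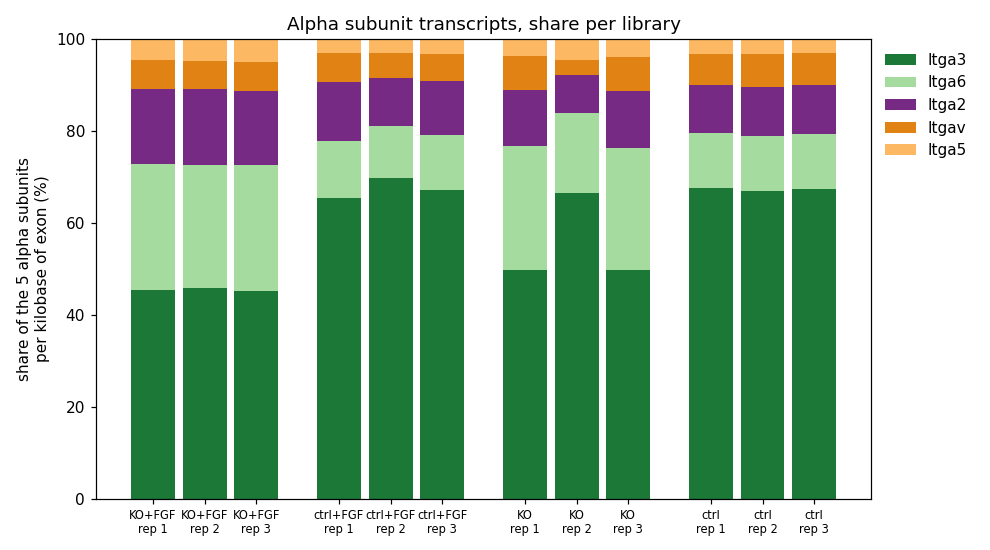
Each bar is a library, divided into the shares of Itga3, Itga6, Itga2, Itgav and Itga5 transcripts per kilobase of exon, in percent of their sum. The laminin receptor subunits are green, the collagen receptor subunit purple and the RGD receptor subunits orange. Itga3 fills about the same part of the 3 bars of ETV4 KO with FGF (45.3% to 45.8%), less than in the control bars, and its share in ETV4 KO replicate 2 (66.5%) is near those of the control bars, while the Itga6 share there (17.4%) is not.

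For the 5 members whose group means spanned at least 2-fold, the genes with the most similar log2 CPM over the 12 libraries were sought among tested genes outside the members. The correlations are descriptions over libraries that share 4 groups and the deviating replicate. Itga6 was closest to Msn, which links actin to the membrane (Pearson's r 0.998), and to Flrt3 (r 0.994). Itga2 was closest to Adam19, a membrane metalloprotease (r 0.991), and Ptpre (r 0.978). Itga5 was closest to Spred3, a relative of the Ras pathway inhibitors of the Sprouty family (r 0.990), and Ier5 (r 0.985). Itgb3 was closest to Gjc1 and Serpine2 (r 0.982 each), and Itgb6 to Ddx58 (r 0.968) and Rnf152 (r 0.961).

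Of the 17 integrin subunits outside the members, 7 passed the filter on low counts. Itga4, Itga9, Itga11 and Itgb2l had 0 counts in all libraries, and the other 6 that failed had few. In both comparisons of ETV4 KO with control, 3 of the 7 were lower (Itgb2, Itga7 and Itga1) and none was higher, where 22.2% of all genes tested with FGF and 23.3% without were called lower. Itgb2, the beta subunit of leukocyte integrins, had 0.8417, 0.846 and 0.5425 CPM in ETV4 KO with FGF, against 18.65, 17.42 and 19.05 CPM in control with FGF. Its log2 fold change was -4.62 with FGF (adjusted p = 3.74e-09) and -3.95 without (adjusted p = 1.06e-08). The alpha partners that leukocytes use were near 0, with 4 counts of Itgal, 2 of Itgam, 6 of Itgax and 2 of Itgad over all libraries, and Ptprc had 63 counts. The 6 macrophage and leukocyte markers, 2 of them tested, summed to 9.62 to 10.8 CPM in ETV4 KO with FGF and 24.1 to 26.9 CPM in control with FGF, of which Itgb2 itself was the larger part in control. Itga7, a laminin receptor subunit of muscle, averaged 7.41 ± 1.48 CPM in ETV4 KO with FGF and 18.8 ± 1.36 CPM in control with FGF (log2 -1.34, adjusted p = 2.54e-05). Itga1, a collagen receptor subunit that pairs with Itgb1, averaged 10.1 ± 0.485 CPM in ETV4 KO with FGF and 20.1 ± 1.12 CPM in control with FGF (log2 -0.99, adjusted p = 0.00207), opposite in direction to Itga2. Without FGF the changes were -1.66 for Itga7 (adjusted p = 5.2e-06) and -1.10 for Itga1 (adjusted p = 0.000816), or -0.82 for Itga1 without replicate 2. Itga8, Itga10, Itga2b and Itgb7 were not called. Of these, Itga8 averaged 36.8 CPM in ETV4 KO with FGF, 36.6 in control with FGF, 27.9 in ETV4 KO and 35.9 in control. For FGF, none of the 7 was called in either genotype with edgeR, DESeq2 or limma-voom, and 0 had an unadjusted p under 0.05. Without ETV4 KO replicate 2, Itga1 was lower with FGF in ETV4 KO cells (-0.47, adjusted p = 0.00655).

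Among 20 matrix ligands of these receptors, 16 were tested. In ETV4 KO over control, 5 were higher and 4 lower with FGF (median log2 fold change -0.02), with or without ETV4 KO replicate 2, and 5 higher and 7 lower without FGF (median -0.17), or 5 higher and 10 lower without replicate 2. Of all genes tested, 40.3% were called in either direction with FGF and 45.8% without, as for each list that follows. Fn1, fibronectin, the ligand of Itga5, went against its receptor: it averaged 500 ± 15.8 CPM in ETV4 KO with FGF and 1297 ± 80.8 CPM in control with FGF (log2 -1.37, adjusted p = 5.17e-07), and its change without FGF was -1.59 (adjusted p = 1.5e-07). Spp1, osteopontin, a ligand of the Itgav dimers, was lower as well, by -1.07 with FGF (adjusted p = 1.42e-07) and -1.13 without (adjusted p = 8.54e-08). Lama3, a chain of the epithelial laminin that Itga3 and Itga6 bind, rose and averaged 1222 ± 29.7 CPM in ETV4 KO with FGF and 496 ± 28.2 CPM in control with FGF (log2 1.30, adjusted p = 1.62e-08), with 0.99 without FGF (adjusted p = 2.19e-07).

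For FGF over no FGF in ETV4 KO cells, 4 of the 16 ligands were higher and none was lower. The counts were 5 higher and 2 lower without replicate 2, and 2 higher in a fit of the ETV4 KO libraries alone. Lama3 was among the 4, with a log2 response of 0.70 (adjusted p = 0.000174), and its call held whichever single library was left out. In control cells 2 ligands rose and none fell, and 5 rose and 2 fell without ETV4 KO replicate 2, or 3 and 2 with the control libraries alone. The higher count was 0 when any library of control, control with FGF or ETV4 KO with FGF was left out. Lama3 responded by 0.38 there (adjusted p = 0.0265). The interaction for Lama3 was 0.31 (adjusted p = 0.42). Of all genes tested, 2.42% were called for FGF in ETV4 KO cells and 0.488% in control cells, as for each list that follows. Without ETV4 KO replicate 2 these shares were 7.76% and 2.8%.

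Hemidesmosome and tetraspanin partners of the laminin receptors numbered 12, of which 11 were tested. In ETV4 KO over control, 6 were higher and 2 lower with FGF (median 0.39), and 7 higher and 2 lower without (median 0.37), or 8 and 2 in each without ETV4 KO replicate 2; of all genes, 40.3% and 45.8% were called. Col17a1, a transmembrane collagen of the hemidesmosome, rose by 1.06 with FGF (adjusted p = 0.000143) and 0.75 without (adjusted p = 0.00263). Plec, which ties Itgb4 to keratins, rose by 0.47 (adjusted p = 5.73e-05) and 0.40 (adjusted p = 0.000195), and the tetraspanin Cd81 by 0.61 (adjusted p = 5.07e-05) and 0.48 (adjusted p = 0.000278). Krt14, a basal keratin, fell by 1.63 with FGF (adjusted p = 1.09e-06) and by 0.99 without (adjusted p = 6.09e-05). With FGF in ETV4 KO cells 2 rose and 1 fell, the fall being that of Krt14 (-0.85, adjusted p = 0.00498); the higher count was between 0 and 1 when any single library other than ETV4 KO replicate 2 was left out. With ETV4 KO replicate 2 left out, 3 rose and 1 fell, and the ETV4 KO libraries alone gave 0 in either direction. For FGF in ETV4 KO cells, 2.42% of all genes were called, or 7.76% without replicate 2. In control cells edgeR called 0, with 1 at an unadjusted p under 0.05, or 1 higher either without ETV4 KO replicate 2 or with the control libraries alone; DESeq2 called 1 and limma-voom 0.

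Of 22 focal adhesion linkers and signalling genes, 21 were tested. In ETV4 KO over control, 7 were higher and 2 lower with FGF (median 0.12), and 11 higher and 2 lower without (median 0.26), where 40.3% and 45.8% of all genes were called. The fit of the compared libraries alone gave 8 higher and 3 lower with FGF, and 6 and 1 without. The higher count with FGF was 4 without ETV4 KO with FGF replicate 1, and 10 without ETV4 KO replicate 2; without FGF that fit gave 11 higher and 3 lower. The lower counts were 1 in several fits with a library left out: with FGF, ETV4 KO with FGF replicate 2 or 3, and without FGF, control with FGF replicate 2 or any control library. Ptk2, focal adhesion kinase, averaged 233 ± 8.12 CPM in ETV4 KO with FGF and 150 ± 2.79 CPM in control with FGF (log2 0.64, adjusted p = 4.67e-06), with 0.63 without FGF (adjusted p = 5.2e-06). Its relative Ptk2b rose by 0.64 and 0.73, and the adaptor Pxn, paxillin, by 0.41 in each comparison. Nedd9, a docking protein of focal adhesions, fell by 0.79 with FGF (adjusted p = 0.000125) and by 1.00 without (adjusted p = 1.72e-05). With all libraries edgeR called 0 of the 21 for FGF in either genotype, with 3 at an unadjusted p under 0.05 in each; DESeq2 called 0 in ETV4 KO cells and 1 in control cells, and limma-voom 0. Leaving out ETV4 KO replicate 2 gave 2 higher in ETV4 KO cells and 3 higher in control cells, and the control libraries alone gave 1 higher. Without that replicate, 7.76% of all genes were called for FGF in ETV4 KO cells and 2.8% in control cells.

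All 17 activators and inhibitors that act at the integrin tail were tested. With FGF, 5 were higher and 1 lower in ETV4 KO than in control (median 0.12), and without FGF 4 were higher and 2 lower (median 0.08), where 40.3% and 45.8% of all genes were called. The compared libraries alone gave 8 higher and 2 lower with FGF, and 2 and 2 without. The counts with FGF were 9 and 3 without ETV4 KO replicate 2, and the higher one was 3 without control with FGF replicate 1 or 3; without FGF it was 2 without control replicate 2, and 6 with 3 lower without ETV4 KO replicate 2. Itgb1bp1, an inhibitor that binds the Itgb1 tail, rose by 0.58 with FGF (adjusted p = 0.000274) and 0.77 without (adjusted p = 2.68e-05). Apbb1ip, which links Rap1 to talin, rose by 0.50 (adjusted p = 3.73e-05) and 0.46 (adjusted p = 6.32e-05). Dok1, which competes with talin, fell by 0.72 (adjusted p = 0.000252) and 0.47 (adjusted p = 0.00438). Tns3, a tensin, had -0.13 with FGF (adjusted p = 0.332) and fell by 0.47 without (adjusted p = 0.00164). FGF raised 2 in ETV4 KO cells, or 4 with 1 lower without replicate 2, and 0 or 1 when any library of the other 3 groups was left out. The ETV4 KO libraries alone gave 0. For FGF in these cells, 2.42% of all genes were called, or 7.76% without replicate 2. In control cells edgeR called 0, with 3 at an unadjusted p under 0.05, or 2 higher without ETV4 KO replicate 2 and 1 with the control libraries alone; DESeq2 called 1 and limma-voom 0.

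Integrin trafficking genes numbered 15, with 13 tested: 2 were higher and 4 lower in ETV4 KO with FGF (median -0.04), and 3 higher and 4 lower without (median -0.10), where 40.3% and 45.8% of all genes were called. With FGF the compared libraries alone gave 4 and 4. Without ETV4 KO replicate 2 there were 4 higher and 4 lower in each condition, and the lower count with FGF was 2 without replicate 1 of either group. Rab25, which recycles Itga5 dimers, was nearly lost: it averaged 0.181 ± 0.0725 CPM in ETV4 KO with FGF and 29.4 ± 2.38 CPM in control with FGF (log2 -7.29, adjusted p = 1.35e-09), with -6.19 without FGF (adjusted p = 2.74e-09). Cav1, the caveolae protein, averaged 0.241 ± 0.162 CPM in ETV4 KO with FGF and 34.6 ± 3.02 CPM in control with FGF (log2 -7.09, adjusted p = 6.95e-10), with -6.86 without FGF (adjusted p = 8.1e-10). Dab2, an endocytic adaptor for Itgb1, rose by 1.53 with FGF and 1.5 without. Gga3, a recycling adaptor, fell by 0.34 with FGF (adjusted p = 0.0262, and up to 0.114 with a library left out) and by 0.54 without (adjusted p = 0.00163). For FGF, edgeR, DESeq2 and limma-voom called 0 of the 13 in either genotype, with 1 at an unadjusted p under 0.05 in ETV4 KO cells and 0 in control cells.

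Other matrix receptors numbered 13, with 9 tested, and 4 were higher in ETV4 KO than in control in each condition, with 1 lower with FGF (median 0.24) and 2 lower without (median 0.07), where 40.3% and 45.8% of all genes were called. The compared libraries alone gave 6 higher and 1 lower with FGF, and 3 and 1 without. Without ETV4 KO replicate 2 there were 6 higher and 1 lower with FGF, and 5 and 2 without. The lower count was 2 with FGF without ETV4 KO with FGF replicate 1, and 1 without FGF when control with FGF replicate 2 or any control library was left out. Ddr1, a collagen receptor kinase, rose by 0.60 with FGF (adjusted p = 2.18e-05) and 0.38 without (adjusted p = 0.000829). Cd44, the hyaluronan receptor, rose by 0.89 (adjusted p = 0.000185) and 0.39 (adjusted p = 0.0296, lost with some libraries left out, up to 0.118), and Sdc1, syndecan-1, by 0.61 and 0.49. Sdc4, a syndecan that works with Itga5 dimers on fibronectin, fell by 0.47 and 0.46. FGF raised 2 in ETV4 KO cells, Cd44 (0.65, adjusted p = 0.0237) and Sdc1 (0.38, adjusted p = 0.0183), but neither when any of the 3 ETV4 KO libraries with FGF was left out, 1 without ETV4 KO replicate 1, and 3 without replicate 2; the ETV4 KO libraries alone gave 0. For FGF in these cells, 2.42% of all genes were called, or 7.76% without replicate 2. In control cells edgeR called 0, with 1 at an unadjusted p under 0.05, or 1 higher and 1 lower without ETV4 KO replicate 2 and 1 higher with the control libraries alone; DESeq2 called 1 and limma-voom 0.

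For latent TGF-beta, the cargo of the Itgb6 dimer, 13 of 15 genes were tested. In ETV4 KO over control, 5 were higher and 2 lower with FGF (median 0.11), and 7 higher and 3 lower without (median 0.29), the same counts as without ETV4 KO replicate 2; of all genes, 40.3% and 45.8% were called. The latent TGF-beta binding proteins Ltbp4 and Ltbp1 rose, by 1.34 and 0.79 with FGF and by 1.42 and 0.53 without, whereas Ltbp3 fell by 0.51 and 0.55. For FGF, edgeR called 0 of the 13 in either genotype, with 1 at an unadjusted p under 0.05 in ETV4 KO cells and 2 in control cells; DESeq2 called 1 in each and limma-voom 0. When ETV4 KO replicate 2 was left out, edgeR called 1 lower in control cells and 0 in ETV4 KO cells, as did fits of the libraries of each genotype alone.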

How the data were processed

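The authors deposited raw read counts per gene symbol for 12 libraries, with no normalization. The tools named in the submitters' processing notes are STAR 2.7.9a, featureCounts, FastQC 0.11.9 and R 4.1.1, and the builds are mm10 and hg38; mouse symbols belong to mm10. For the annotation release, strand setting and multi-mapping reads, details were not given in the sources used here. Per the labels' protocols, libraries came from a stranded polyA kit.

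Counts were tested in R 4.3.3 with edgeR 4.0.16, by its quasi-likelihood F-test (filterByExpr, TMM scaling, a mean per group over 12 libraries, leaving 8 residual degrees of freedom). All tests were two-sided, and calls needed a Benjamini-Hochberg adjusted p under 0.05 over 12079 genes. Every adjusted p is from this test unless another tool is named. The SE is the log2 fold change divided by the square root of F. CPM are TMM-scaled, and RPKM divide CPM by the GENCODE vM21 exon length. Neighbours are up to 25 tested genes on each side. The test was also run on simulated counts, which held no deviating library such as ETV4 KO replicate 2. That run cannot show how the test behaves with such a library.

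The members, gene lists and tests were chosen with earlier results of these data known. The text names all members, the other tested integrin subunits, Etv4 and up to 4 genes per list with the smallest adjusted p, and the 2 genes most like each member with a 2-fold range among genes whose mean log2 CPM was 1 or more (prior count 2). Some genes that this rule names are not reported here. Mmp9 and Mmp13 were named after their values were seen. Alternatives were RLE scaling, no filter on low counts, DESeq2 1.42.0, limma-voom (limma 3.58.1), a replicate block, the compared libraries alone and each library left out; a fit without both ETV4 KO replicate 2 and control with FGF replicate 2 was chosen after seeing the data. Depth, 18229429 to 23193244 counts per library, limits the precision of Itgb3 and Itgb6.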

Additional observations from a re-analysis of the deposited data

How the results depend on the processing

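The genotype calls of Itga5, Itga6, Itgb3, Itgb5 and Itgb6 and the FGF response of Itga5 in ETV4 KO cells held in all fits run. So did the genotype calls of Itga2 and Itgb1 with FGF. Over all members and settings, 889 alternative fold changes kept their direction and call, 29 gained the call, 10 lost it and 12 turned; the cause was not tested. Fitting the compared libraries alone left 23 genes (against 292) and 1 member called for FGF in ETV4 KO cells, and 228 genes (against 59) for FGF in control cells. DESeq2 called 715, 143 and 66 genes for FGF in ETV4 KO cells, FGF in control cells and the interaction, and 1 member for the interaction. For the interaction, limma-voom called 4 genes and no filter 8 (against 2). Without both ETV4 KO replicate 2 and control with FGF replicate 2, members called without FGF were 4 higher and 5 lower in ETV4 KO. That fit called 1428 genes and 5 members higher for FGF in ETV4 KO cells, 356 genes with 3 members higher and 2 lower for FGF in control cells, and 210 genes with 3 members higher for the interaction. It turned the direction of Itgav (0.3) and Itgb1 (0.04) in ETV4 KO without FGF, of Itgb3 with FGF in control cells (-0.07), and of the interactions of Itga3 (0.02) and Itgb5 (0.17). With each library left out in turn, genes called ranged from 4491 to 6667 for ETV4 KO over control without FGF, 3963 to 7172 with FGF, 120 to 950 for FGF in ETV4 KO cells, 25 to 343 for FGF in control cells and 0 to 120 for the interaction. Members called higher ranged, in the same order, from 2 to 4, 4 to 5, 3 to 5, 0 to 1 and 0 to 3. Members called lower ranged from 3 to 5 for each genotype comparison and were 0 for the others. The fold changes that turned ranged from -0.25 to 0.29 for Itgav and -0.11 to 0.04 for Itgb1 in ETV4 KO without FGF, from -0.06 to 0.21 for Itgb3 with FGF in control cells, and from -0.1 to 0.02 for Itga3 and -0.16 to 0.08 for Itgb5 in the interaction.

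Same-numbered libraries did not deviate together (correlations from -0.087 to 0.078, against -0.102 to 0.146 for different numbers). These correlations run over all genes tested, between deviations from means of 3 libraries. They cannot exclude a shared culture or preparation, which the labels do not state. With the replicate number as a block, 5705 and 4944 genes were called for ETV4 KO over control without and with FGF, 269 and 52 for FGF in ETV4 KO and control cells, and 3 for the interaction. Counts of members called were 2 higher and 3 lower without FGF, 4 and 5 with FGF, 3 and 0 for FGF in ETV4 KO cells, and 0 for the rest, as without the block. Low counts limit Itgb3 and Itgb6.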
